A study of Gallus gallus with 16 samples.

Results

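Of 16 libraries of spinal cord region RNA from chicken embryos, 4 held almost no reads at 57 loci that were present in each of the other 12. These 4 libraries are called putative males below, and the other 12 putative females. To find them, counts at 26943 loci were scaled by the total of each library to CPM, that is counts per 1e+06 counts. The 632 loci that stood at 0.5 CPM or more or under 0.05 CPM in every library, with both kinds present, were sorted by the libraries in which they were present. There were 397 patterns, of which 96 left present and absent libraries in all 4 groups, and the commonest of the 96 was taken. Each group held 1 putative male: replicate 2 of vehicle at day 5, replicate 4 of nicotine at day 5, replicate 2 of vehicle at day 7 and replicate 2 of nicotine at day 7. The labels record no embryo sex, so the names stand for the pattern alone.

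In birds the female is the heterogametic sex, with 1 Z and 1 W chromosome, and the male carries a pair of Z chromosomes. The W holds few genes, most of them with a Z copy, and it is absent from males. Birds have no chromosome-wide mechanism that equalises Z expression between the sexes, and Z genes are known to differ in how far they are compensated. DMRT1, a Z-linked transcription factor gene, directs testis formation in the chicken, and its effect depends on its copy number.

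The embryos were wild-type domestic chickens from fertile specific pathogen-free eggs. The eggs had received nicotine (given as the hydrogen bitartrate, 30 ng/ml as free base, scaled to egg weight) or sodium bitartrate monohydrate as vehicle before incubation. Embryos were collected at day 5 or day 7, and each library came from a piece holding the spinal cord, cut from the stretch that runs from mid neck to the rear margin of the forelimb. There were 4 embryos in each of the 4 combinations, described as biological replicates, and the labels name no sequencing batch or RNA quality value. Total counts ran from 21801247 to 29002315, and they averaged 2.61e+07 ± 1.97e+06 in the putative males and 2.46e+07 ± 2.47e+06 in the putative females (SD, n = 4 and 12, two-sided exact permutation within groups, p = 0.336). Loci with at least 1 count numbered 20096.5 ± 101 and 19988 ± 230 (SD, exact permutation p = 0.215). The smallest p that the 256 arrangements allow is 0.00391.

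The 57 loci summed to between 784.9 and 1178 CPM in the 12 putative females, from 18224 to 33452 counts. In the putative males they held 2, 0, 3 and 1 counts, at most 0.117 CPM in sum, in the order vehicle day 5, nicotine day 5, vehicle day 7 and nicotine day 7. All 57 loci held a count in every putative female, and 53 had 0 counts in all 4 putative males. The mean over the putative females was 0.724 CPM at the weakest locus, 4.56 CPM at the median locus and 147 CPM at the strongest. The libraries were selected on these presence values, which are given as a description. The next commonest of all patterns held 18 loci that were absent from 1 library, and none of the other patterns with present and absent libraries in all 4 groups held more than 1 locus. Just inside the thresholds, the 3 weakest loci had a lowest putative female value of 0.526, 0.590 and 0.596 CPM. Just outside, 3 loci at 0 counts in the putative males fell to 0.498, 0.486 and 0.436 CPM in a putative female. A further 3 loci reached 0.0731 CPM in a putative male while their lowest putative female value lay between 2.48 and 15.7 CPM. No gene symbol was available for any of the 57 loci. The 2 strongest were the assembled loci MSTRG.13628, at 105 to 197 CPM in the putative females, and MSTRG.17364, at 77.8 to 211 CPM, both with 0 counts in all putative males.

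**Figure D1:**
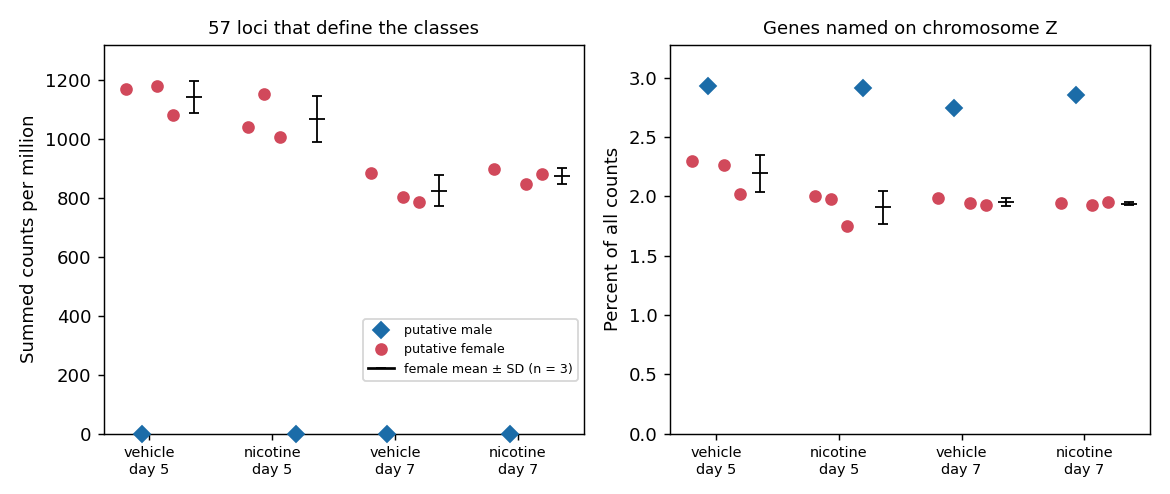
Left, summed CPM of the 57 loci that define the classes, and right, percent of all counts that fell on genes named on chromosome Z, for each library by group. Diamonds are putative males, circles putative females, and bars the mean ± SD of the 3 putative females of each group. The diamonds lie at 0 on the left, by choice, and between 2.75% and 2.93% on the right, above every circle.

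The loci of chromosome Z are a measure that the choice hardly used: 1 of the 447 tested Z loci was among the 632 loci sorted. Of all counts, 2.93%, 2.92%, 2.75% and 2.85% fell on Z loci in the putative males of vehicle day 5, nicotine day 5, vehicle day 7 and nicotine day 7. In the 12 putative females the share was 1.75% at the lowest, 1.97% at the median and 2.298% at the highest. The classes did not overlap, and the means of 2.86% ± 0.0831 and 2.00% ± 0.148 (SD, n = 4 and 12) differed by 0.861 percentage points (two-sided exact permutation within groups, p = 0.00391, the smallest that the design allows). Within each group the putative male had the highest share of the 4 embryos. Against the putative females of its own group, each putative male had a median log2 difference over 386 Z loci of 0.47 (vehicle day 5), 0.66 (nicotine day 5), 0.47 (vehicle day 7) and 0.60 (nicotine day 7). Over 7303 loci of other chromosomes the same median lay between -0.03 and 0.03. Both sets hold loci averaging 2 CPM or more in the higher class, so a locus could enter through the putative males alone. Between 88.6% and 95.9% of the 386 Z loci were above the female mean of the group in each putative male. These values are therefore a description.

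Across the genome, 325 of 19560 tested loci were higher in the putative males and 155 lower (edgeR quasi-likelihood test with the 4 groups as terms, Benjamini-Hochberg adjusted p under 0.05), which is 1.66% and 0.792% of the loci. All 57 pattern loci are among those called lower, as the choice required, which leaves 98 others. Such p-values measure the spread between these 16 libraries. Of the 447 Z loci, 212 (47.4%) were higher and 1 was lower, with a median log2 difference of 0.57, a 1.49-fold difference, and 421 (94.2%) had a value above 0. Of 8218 loci on other chromosomes, 2 were higher and 3 lower, and their median was -0.01. Of the 214 loci with a known chromosome that were called higher, 99.1% were therefore on Z. The putative males lay above all 12 putative females at 108 Z loci (24.2%), and at 0.905% of all tested loci. The quartiles of the Z values were 0.32 and 0.78. Among the 212 called Z loci the difference ran from 0.28 to 1.67 with a median of 0.72, and 7 exceeded 1, the value of a copy number ratio carried over in full. At day 5 alone, with 2 putative males and 6 putative females, the Z median was 0.57, and 45 of 442 Z loci were called higher. At day 7 alone, with the same numbers of libraries, it was 0.54, and 168 of 441 were called higher. The edgeR test of the class difference between days called 0 loci, so these counts do not show a larger difference at day 7.

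**Figure D2:**
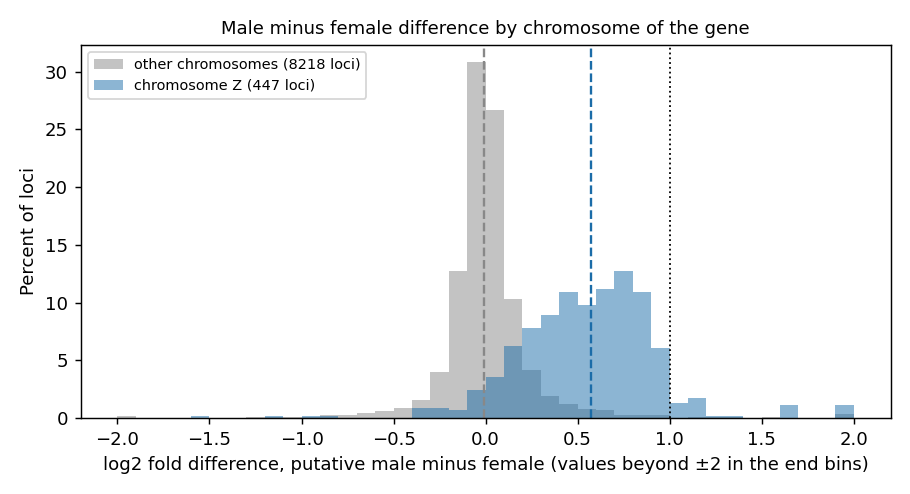
Percent of loci by log2 difference between putative males and females, for 447 loci on chromosome Z and 8218 on other chromosomes; dashed lines mark the medians of 0.57 and -0.01 and the dotted line a value of 1. The Z loci are shifted to the right as a body, and most lie short of the dotted line.

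ALDH7A1, an aldehyde dehydrogenase of lysine breakdown, had the smallest adjusted p among named genes. It stood at 244, 247, 249 and 251 CPM (scaled by the trimmed mean of M-values, TMM, as are all gene levels below) in the putative males, in the order of groups used above. In the putative females it ran from 125 over a median of 141 to 149 CPM. The classes were far apart and both were narrow, and the log2 difference was 0.84 ± 0.05 (SE, edgeR, adjusted p = 1.63e-08). RNF20, a ubiquitin ligase for histone H2B, stood at 287, 291, 250.1 and 255 CPM in the putative males and at 142, 164 and 189 CPM (lowest, median, highest) in the putative females. Its log2 difference was 0.75 ± 0.05 (edgeR, adjusted p = 4.73e-08), and in both classes the day 5 values lay above those of day 7. MED18, a subunit of the Mediator complex, stood at 42.4, 37.9, 37.5 and 36.4 CPM against 16.8, 19.3 and 22.6 CPM. With a log2 difference of 0.99 ± 0.08 (edgeR, adjusted p = 7.77e-07) it was the named gene of the leading 15 closest to 1. The other 12 of the leading 15 were NUP155 (nuclear pore), FAM172A, XPA (nucleotide excision repair), PLAA, HSD17B4 (peroxisomal fatty acid oxidation), TMEM175 (a lysosomal ion channel), CENPK (kinetochore), HNRNPK (RNA binding), ZFAND5, TBCA (tubulin folding), AK6 (adenylate kinase) and DCTN3 (dynactin). All 15 are on Z, and their log2 differences lay between 0.67 (HNRNPK) and 0.99 (MED18).

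Genes whose Z copy has a W counterpart were tested for 3 of 23 listed symbols, and all 3 were higher, beside 47.4% of all Z loci, a count too small to set the list apart. HNRNPK, the RNA-binding protein, had 772, 796, 565 and 650.0 CPM in the putative males and 348, 432 and 568 CPM (lowest, median, highest) in the putative females. The classes overlapped because the day 5 females stood above the day 7 females, but each putative male was above the females of its own group. TXNL1, a thioredoxin-like protein, had a log2 difference of 0.78 ± 0.07 (edgeR, adjusted p = 4.07e-06), and BTF3, a factor bound to nascent proteins, 0.55 ± 0.08 (adjusted p = 4.00e-04); the call for BTF3 was lost at each day alone and with the class as the only term. Reads from a W copy could not be told from those of the Z copy here. Symbols for CHD1, HINT1 and SPIN1, other genes with both copies, were not matched to a locus and were not analysed here.

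**Figure D3:**
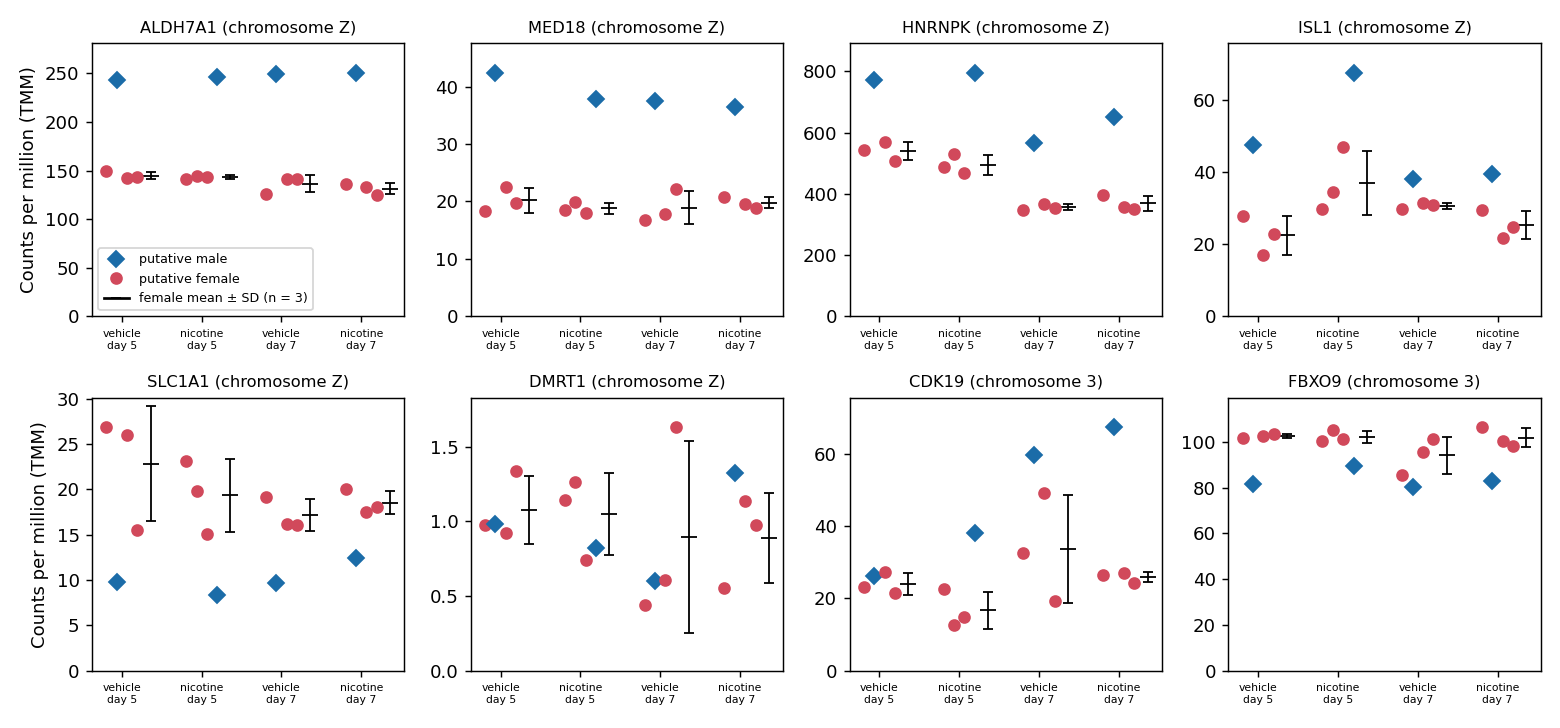
Level of 8 genes in each library in CPM (TMM), by group; diamonds are putative males, circles putative females, and bars the mean ± SD of the 3 putative females of a group. ALDH7A1, MED18, HNRNPK and ISL1 are above the females of the group in every putative male, SLC1A1 is below them, and DMRT1 is among them in 3 groups and above them in nicotine day 7.

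Part of the 447 tested Z genes were sorted by role, after their values had been seen, and the others were left unsorted. The 8 groups can be set beside the Z chromosome as a whole (47.4% higher, median 0.57), but they do not cover it. Genes of DNA repair and cell division had 23 of 28 higher and none lower by edgeR, with a median of 0.74. Among them were XPA at 0.96 ± 0.06 (adjusted p = 1.33e-07), the mismatch repair gene MSH3 at 0.95 ± 0.09 (adjusted p = 4.53e-06), and both CDK7 at 0.77 ± 0.07 (adjusted p = 6.94e-06) and its partner cyclin gene CCNH at 0.83 ± 0.07 (adjusted p = 2.78e-06), whose products form the kinase that activates other cyclin-dependent kinases. Genes of mitochondria and metabolism had 20 of 30 higher with a median of 0.72. The respiratory complex I gene NDUFS4 was at 0.78 ± 0.07 (edgeR, adjusted p = 7.32e-06), while the adenylate kinase gene AK3 was at -0.26 and did not pass. Genes of trafficking, autophagy and the cytoskeleton had 13 of 20 higher with a median of 0.72, led by TBCA and DCTN3.

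Genes of RNA processing and translation had 20 of 32 higher with a median of 0.58. The ribosomal protein genes of this group did not share a direction. RPS6 rose from 710 ± 182 CPM in the putative females to 1170 ± 175 CPM in the putative males (log2 difference 0.76 ± 0.09, edgeR, adjusted p = 1.12e-04), and RPS23 was at 0.83 ± 0.08 (adjusted p = 7.19e-06). RPL37 had 251 ± 69.2 and 213 ± 66.5 CPM and did not pass (-0.24 ± 0.10, adjusted p = 0.597).

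The remaining groups had smaller shares of called genes. Transcription factors and chromatin genes had 15 of 36 higher with a median of 0.45, cytokine, growth factor and hormone signalling 5 of 19 with a median of 0.36, and matrix and adhesion 3 of 13 with a median of 0.32. IL6ST, the signalling subunit shared by receptors of the interleukin-6 family, was at 0.47 ± 0.07 (edgeR, adjusted p = 9.22e-04) and OSMR, a receptor that pairs with it, at 0.54 ± 0.09 (adjusted p = 0.00217), while the related receptor gene LIFR was at 0.46 ± 0.14 and did not pass (edgeR, adjusted p = 0.167; 0.0205 without nicotine day 5 replicate 1). FBN2, a fibrillin of elastic microfibrils, was at 0.57 ± 0.09 (adjusted p = 0.00161). Genes of neuronal signalling, channels and synapse had 4 of 34 higher, 1 lower and a median of 0.39. The 4 were SNCAIP, which encodes a partner of alpha-synuclein, at 0.81 ± 0.08 (adjusted p = 1.49e-05), the cation channel gene TRPM3 at 1.62 ± 0.27 (adjusted p = 0.00218), ENC1 at 0.44 ± 0.08 (adjusted p = 0.00654) and the neuronal RNA-binding protein gene ELAVL2 at 0.50 ± 0.10 (adjusted p = 0.00973). The calls for TRPM3, ENC1 and ELAVL2 were lost at each day alone and with the class as the only term, that for ENC1 also without the putative male of vehicle day 5 (edgeR, adjusted p = 0.0695), and that for ELAVL2 without the one of vehicle day 5, vehicle day 7 or nicotine day 7 (adjusted p = 0.0508, 0.0574 and 0.0987). No test of the differences between these groups was made, and how far the read level of a gene bears on these shares was not tested. Of the 386 Z loci with 2 CPM or more in the higher class, 54.9% were higher. A locus could enter that set through the putative males alone, so this share is a description.

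**Figure D4:**
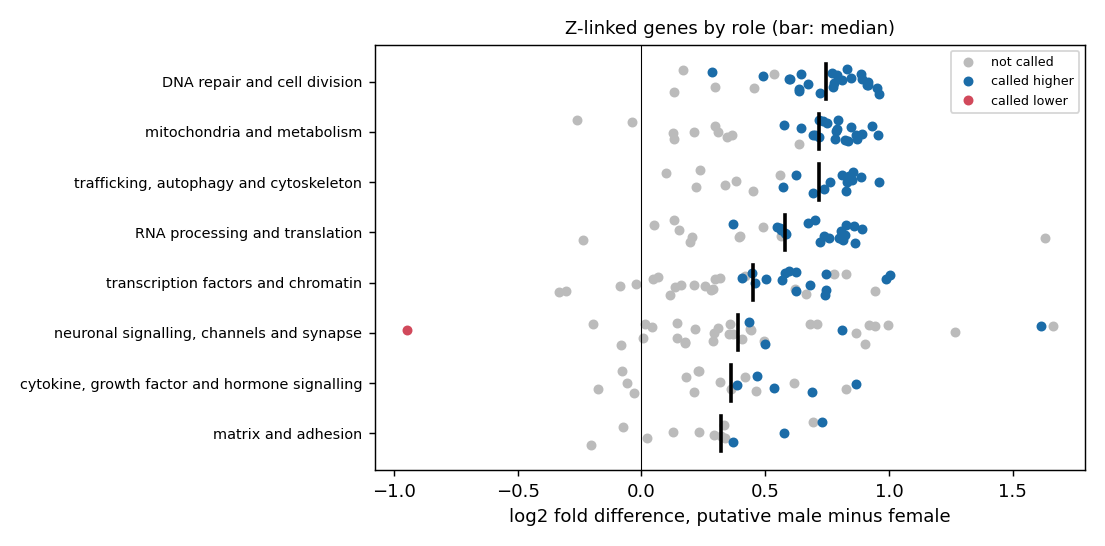
Log2 difference between putative males and females for the part of the Z-linked genes that was sorted into 8 groups by role. Each point is 1 gene, coloured by the edgeR call, and the vertical bar is the median of the group. Medians run from 0.32 (matrix and adhesion) to 0.74 (DNA repair and cell division), and SLC1A1 is the lone gene called lower.

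ISL1, a LIM homeobox gene of motor and sensory neurons, bears on the tissue itself and lies on Z. Its level was 47.5, 67.6, 38.1 and 39.6 CPM in the putative males and 16.9, 29.6 and 46.9 CPM (lowest, median, highest) in the putative females. Each putative male was the highest of its group, although the highest putative female, in nicotine at day 5, exceeded the putative males of day 7. The log2 difference was 0.74 ± 0.14 (edgeR, adjusted p = 0.00642), and the call was lost without the putative male of either day 5 group (adjusted p = 0.0723 for vehicle and 0.0568 for nicotine), at each day alone and with the class as the only term. For nicotine at day 5 the authors' deposited table gives ISL1 a log2 fold change of 0.65 with an adjusted p of 0.0338. NTRK2, the receptor of brain-derived neurotrophic factor, had 17.3, 3.42, 39.2 and 64.0 CPM in the putative males and 2.60, 9.16 and 38.8 CPM in the putative females, and its log2 difference of 1.27 ± 0.34 did not pass (edgeR, adjusted p = 0.0815), although it passed without nicotine day 5 replicate 3 (adjusted p = 0.0436) or 4, the putative male (adjusted p = 0.00905). By DESeq2 on all 16 libraries NTRK2 passed (adjusted p = 0.0103). In 3 groups the putative male was the highest, and in nicotine at day 5 it lay among the females. The nicotinic receptor subunit genes CHRNA6 and CHRNB3, both on Z, reached at most 1.005 and 2.65 CPM in a library, overlapped between the classes and did not pass (0.94 ± 0.63 with adjusted p = 0.967, and 0.50 ± 0.35 with adjusted p = 0.971).

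Along the chromosome the difference was broad but for a stretch around the DMRT genes. With Z genes in the order of the RefSeq assembly GRCg7b, the median of 21 neighbouring genes lay between 0.44 and 0.69 in the middle 80% of 427 windows. The lowest window, of the genes ranked 172 to 192, had a median of 0.12 with 5 genes higher, 1 lower and 9 below 0. DMRT1, the testis gene, was at 0.979, 0.822, 0.598 and 1.32 CPM in the putative males and at 0.442, 0.975 and 1.63 CPM (lowest, median, highest) in the putative females, a log2 difference of -0.09 ± 0.34 (edgeR, adjusted p = 0.997). This standard error is wide beside the Z median of 0.57. Among its well-read neighbours the chromatin remodelling gene SMARCA2 was at 0.12 ± 0.08, with 175 ± 19.7 and 163 ± 32.5 CPM in putative males and females, KANK1 at 0.10 ± 0.09, the cytokine signalling kinase JAK2 at -0.06 ± 0.11 and CDC37L1 at -0.01 ± 0.09, and none passed. These 4 differences are below the Z median of 0.57 by several standard errors, but no test of that gap was made, and the window was chosen for its low value. Other genes of the window were not low: MRPS27, a mitochondrial ribosome gene, was at 0.70 ± 0.08, ANKRA2 at 0.64 ± 0.08 and BTF3 at 0.55 ± 0.08, all called higher. PUM3, next to SMARCA2, was at 0.40 ± 0.10 and did not pass (edgeR, adjusted p = 0.0703), but passed without replicate 2, the putative male, or replicate 3 of vehicle day 5 (adjusted p = 0.0150 and 0.0299). It also passed at day 7 alone (0.53, edgeR, adjusted p = 0.00744) and by DESeq2 on all 16 libraries (adjusted p = 0.0251).

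SLC1A1, a neuronal glutamate transporter gene within this stretch, was the Z gene called lower. It stood at 9.75, 8.39, 9.64 and 12.4 CPM in the putative males and at 15.1, 18.6 and 26.9 CPM (lowest, median, highest) in the putative females, with no overlap. The log2 difference was -0.95 ± 0.16 (edgeR, adjusted p = 0.00238). It did not pass at day 5 alone and passed in every fit without 1 library. Assembled loci are numbered along the chromosomes, since 98.2% of 7769 neighbouring pairs of named loci share a chromosome. An unnamed locus numbered between PUM3 and SLC1A1 averaged 118 ± 28.0 CPM in the putative females, from 83.0 to 167 CPM, and at most 0.254 CPM in a putative male. A further 2 unnamed loci between SLC1A1 and CDC37L1 were at 9.06 ± 5.32 and 0.776 ± 0.308 CPM in the putative females and had 0 counts in the putative males. These 3 loci are close to the pattern that chose the libraries, so their absence is a description. Such loci also lay between other Z genes: MSTRG.17361 and the pattern locus MSTRG.17364 were numbered between TXNL1 and SEC11C. They averaged 10.8 and 139 CPM in the putative females and 0.455 and 0 CPM in the putative males.

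**Figure D5:**
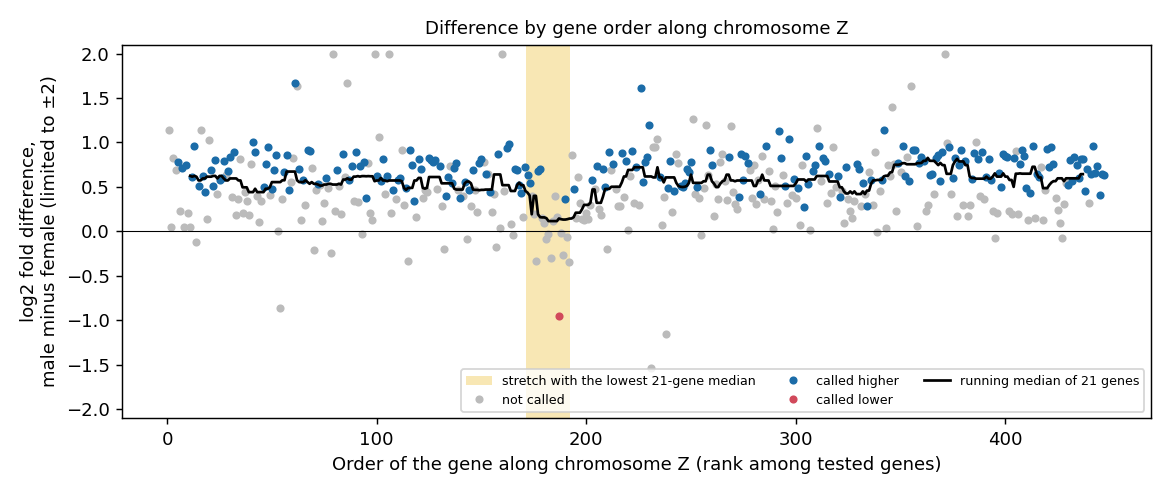
Log2 difference between putative males and females for 447 Z genes against their order along chromosome Z in GRCg7b, limited to ±2 for display; points are coloured by the edgeR call and the line is the running median of 21 genes. The line stays near 0.57 over most of the chromosome and dips to 0.12 in the shaded stretch around the DMRT genes.

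Of 10838 tested loci without a chromosome, 111 (1.02%) were higher and 94 (0.867%) lower, which are the rest of the calls. The shares over all tested loci were 1.66% and 0.792%. Of the 94, 76 averaged under 0.5 CPM in the putative males, and they are given as a description because their pattern is close to the one that chose the libraries. With the smallest p, MSTRG.16891 had 1.49, 1.21, 1.20 and 0.846 CPM in the putative males and 77.0 to 114 CPM in the putative females. MSTRG.17564 had 0.689, 0.476, 0.486 and 0.772 CPM and 242 to 548 CPM. At both loci every putative female was far above every putative male. Their pattern is also close to the one that chose the libraries, so these values are a description too. Unnamed loci numbered between Z genes were taken in 2 parts, the longest run and the others. The longest unnamed run held 61 tested loci, of which 41 were lower, 8 of these from the pattern, and 2 were higher. Over all tested loci 0.792% were lower and 1.66% higher. The 8 are lower by choice, and the count for this run is given as a description. Of the other 271 unnamed loci between Z genes, 101 (37.3%) were higher and 5 lower, with a median of 0.63, close to that of the named Z genes. Of these 5, MSTRG.17364 is lower by choice and the others are close to the pattern, so their count is a description too. MSTRG.17395, among the 2 unnamed higher loci with the smallest p, had 674, 694, 476 and 532 CPM in the putative males and 230.5 to 411 CPM in the putative females.

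Outside chromosome Z 5 genes of known chromosome were called, and these calls were less steady. They are named because they are few, CNIH3 outside the rule for named genes. CDK19, a kinase of the Mediator complex on chromosome 3, had 26.3, 38.0, 59.7 and 67.4 CPM in the putative males and 12.7, 23.7 and 49.2 CPM (lowest, median, highest) in the putative females (0.92 ± 0.21, edgeR, adjusted p = 0.0309). At vehicle day 5 the putative male lay among the females. TFAP2C, an AP-2 transcription factor gene on chromosome 20, had 3.84, 4.89, 8.75 and 2.87 CPM against 1.53, 3.03 and 4.52 CPM (0.79 ± 0.19, adjusted p = 0.0457), with the highest value in vehicle at day 7. FBXO9, an F-box protein gene on chromosome 3, had 81.7, 89.3, 80.2 and 82.7 CPM against 85.4, 101 and 107 CPM (-0.26 ± 0.05, adjusted p = 0.00904). Each putative male was the lowest of its group. SMC6, on chromosome 3, had 71.4, 76.5, 51.7 and 59.8 CPM against 67.6, 79.1 and 133 CPM (-0.45 ± 0.11, adjusted p = 0.0345), and again each was the lowest of its group. Its partner in the SMC5/6 DNA repair complex, the Z gene SMC5, was at 0.72 ± 0.08 (adjusted p = 4.25e-05). CNIH3, on chromosome 3, had 0 counts in the putative males and at most 0.552 CPM in a putative female, and it was also at 0 in 1 of these. CES1, a carboxylesterase gene with no chromosome in the reference used, had 40.2, 44.1, 43.6 and 56.2 CPM against 45.4, 66.8 and 82.6 CPM (-0.51 ± 0.10, edgeR, adjusted p = 0.00597). NTPCR on chromosome 3 came next among lower genes and did not pass (edgeR, adjusted p = 0.0555), although it passed without vehicle day 5 replicate 4, nicotine day 5 replicate 3 or nicotine day 7 replicate 4 (adjusted p = 0.0466, 0.0203 and 0.0182). DESeq2 on all 16 libraries called NTPCR lower (adjusted p = 0.00596). With each of 16 libraries left out in turn, the edgeR call was lost in 13 fits for TFAP2C, 11 for SMC6, 10 for CDK19 and 4 for CNIH3. It was lost in 2 for FBXO9, without the putative male of vehicle day 5 or nicotine day 7, and in 2 for CES1, without that of vehicle day 5 or vehicle day 7. With the class as the only term the calls for FBXO9, CES1, SMC6, TFAP2C and CDK19 were lost, at day 5 alone those for all 6, and at day 7 alone those for all but SMC6.

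Genes of gonadal sex determination and sex hormones had 1 of 17 tested members higher (5.88%), and 3 of the 17 are on Z. The shares were 1.66% over all tested loci and 47.4% over Z loci. The 1 called was the Z gene HSD17B4, which also belongs to peroxisomal metabolism. It rose from 59.4 ± 8.04 to 113 ± 12.7 CPM (0.93 ± 0.07, edgeR, adjusted p = 2.93e-07). None of the 14 members on other chromosomes passed, and their median was 0.10. The estrogen receptor gene ESR1 was at 0.142 and 0.503 CPM and the steroid side-chain cleavage gene CYP11A1 at 0.256 and 0.0981 CPM in putative males and females, and PRLR, the Z-linked prolactin receptor gene, was at 0.83 ± 0.28 (adjusted p = 0.320).

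Markers of the neural tube and of other tissues in the piece were read in both classes. None off Z was called by edgeR on all 16 libraries with the 4 groups as terms. Over all loci outside the pattern, 1293 of 19503 (6.63%) had an unadjusted p under 0.05. In bulk RNA, fewer cells of a type and less RNA per cell cannot be told apart. Among 7 tested neuronal markers the median was 0.09, with the neurofilament gene NEFM at 381 ± 92.9 and 355 ± 112 CPM in putative males and females. Among 9 neural progenitor markers the median was 0.13 and among 7 motor neuron markers off Z it was -0.04. Skeletal muscle markers had a median of -0.43 over 9 genes, of which 5 had an unadjusted p under 0.05, all lower in the putative males, for example DES at -0.47 ± 0.16 (edgeR, adjusted p = 0.270). Their summed level was 380 to 696 CPM in the putative males and 405 to 867 CPM in the putative females. Epidermal markers had a median of 0.42 over 6 genes, 4 with an unadjusted p under 0.05 and higher, with sums of 258 to 414 and 169 to 419 CPM. Of 10 macrophage and leukocyte markers, the complement genes C1QB, C1QA and C1QC were at -1.13, -1.11 and -1.07 (edgeR, adjusted p = 0.0652, 0.165 and 0.354), while the median of the 10 was -0.19, with CSF1R, the receptor of macrophage colony-stimulating factor, at -0.07. Without vehicle day 5 replicate 1, C1QB and C1QC passed (adjusted p = 0.0318 and 0.0274), and C1QB also without nicotine day 7 replicate 4 (adjusted p = 0.0346). With the class as the only term C1QB passed as well (edgeR, adjusted p = 0.0392). By DESeq2 on all 16 libraries C1QB and C1QA passed (adjusted p = 0.00474 and 0.0264) and C1QC did not. The sums were 63.1 to 80.7 and 73.9 to 114 CPM. Erythroid, cartilage and notochord, endothelial, dorsal root ganglion and neural crest, Hox, immediate early and heat shock and cell cycle lists had medians of 0.23, 0.02, 0.05, 0.14, -0.29, -0.02 and -0.02, and the members called in them, ISL1, DNAJA1 and MELK, are on Z. No marker matched to a locus was at 0 in all 16 libraries. The part of these tissues in the results above was not tested.

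The class difference was also compared between days and between treatments. By edgeR, 0 loci differed between day 7 and day 5 (0% of 19560; 620 had an unadjusted p under 0.05, and DESeq2 called 24), and the median change over Z loci was 0.03. Between nicotine and vehicle 2 loci differed (0.0102%; 746 had an unadjusted p under 0.05, and DESeq2 called 34), neither with a symbol. Each side of these comparisons rests on 2 putative males. MSTRG.14485 had 42.6 and 51.5 CPM in the putative males given vehicle and 14.1 and 16.3 CPM in those given nicotine, with 40.6 to 55.5 CPM in all putative females (difference -1.68 ± 0.14, edgeR, adjusted p = 2.75e-04). MSTRG.14178 had 31 and 28 counts in the former, 0 and 0 in the latter and 17 to 32 counts in the putative females (adjusted p = 0.00376). No Z locus was called in either comparison, and the Z median was higher by 0.17 in nicotine than in vehicle.

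The comparison the study was made for, nicotine against vehicle, was fitted with and without the class as a term. At day 5 edgeR called 1 locus with the term (0.00511%) and 0 without it (0%), with 2760 and 2728 loci at an unadjusted p under 0.05, and DESeq2 called 320 and 283. At day 7 edgeR called 0 with and 0 without it, with 928 and 888 at an unadjusted p under 0.05, and DESeq2 called 61 and 35. The authors' deposited table lists 322 identifiers with an adjusted p under 0.05 at day 5, and the authors' deposited table for day 7 lists 84. DESeq2 fold changes were set beside those in the authors' deposited table for nicotine at day 5. Among 3418 shared identifiers averaging over 20 counts, 98.9% lay within 0.001 with the class term, against 14.95% without the term. The locus called at day 5 was MSTRG.17049. It had 88, 62 and 109 counts in the putative females given vehicle and 0 in all 3 given nicotine at day 5, 66 to 124 counts in the 6 putative females of day 7, and 0 in all 4 putative males (adjusted p = 7.04e-04).

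Among the 12 putative females the summed level of the 57 loci, in CPM from library totals without TMM, was lower at day 7. It was 1142 ± 54.8 CPM in vehicle and 1066 ± 77.5 CPM in nicotine at day 5, and 824 ± 52.3 and 875 ± 26.9 CPM at day 7 (SD, n = 3 each), with no overlap between days. Locus by locus, in an edgeR fit of the 12 libraries, 19 of the 57 were lower at day 7 (33.3%) and 4 higher (7.02%). Over all 18334 loci of that fit the shares were 22.5% and 19.7%. The median log2 difference of the 57 was -0.08, while the strongest locus, MSTRG.13628, was at -0.65. The 57 were chosen for their presence in these libraries, so these values are a description. The Z loci were tested in the same fit of the 12 libraries. Between days, 150 of 433 Z loci were lower at day 7 (34.6%) and 71 higher (16.4%), beside 22.5% and 19.7% of 18334 loci (edgeR). Between nicotine and vehicle 0 Z loci passed (edgeR, 40 at an unadjusted p under 0.05), beside 0.00545% of loci called in each direction. In that comparison, which averages day 5 and day 7, 347 of the 433 had a value below 0. Their median was -0.11 beside -0.0019 for all loci. The days differed: in the fit of all 16 libraries with the class term, the Z median was -0.16 at day 5 and 0.04 at day 7.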

How the data were processed

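RNA was sequenced from 16 embryos, 1 library each. The authors deposited a matrix of raw read counts, whole numbers without normalisation, for 18258 assembled loci and 8685 loci with a gene identifier; the latter hold 0.334% of the counts, and 0 columns were unmapped. Tools in the submitters' processing notes, which give no order, are StringTie 1.3.3b, HISAT2 2.0.5, Bowtie2 2.3.2, DESeq2, FastQC 0.11.5 and Trim Galore 0.4.4. The genome build, the annotation and the use of strand were not given in the sources used here. Genes that overlap, run antisense or have a close copy therefore cannot be told apart, and coordinates are not printed. Further tables that the authors deposited give, per gene identifier, their log2 fold change, its size as a ratio, and p-values before and after adjustment.

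Assembled loci were given gene identifiers where the log2 fold changes of DESeq2 1.42.0 on the matrix, with the class as a term, met those in the authors' deposited tables within 0.005 and the next candidate was over 10 times as far. For 7138 identifiers in both, this linked 6689, 0 of them wrongly, and 13999 assembled loci were linked. Symbols were then available for 9212 loci, and 8877 of these were found by exact symbol in the RefSeq gene table of GRCg7b, which gave the chromosome (456 on Z, 0 on W). By its locus number, 1 symbol placed on Z, NPR1, lies among loci of another chromosome. The fit that links the loci uses the classes only as a covariate, and the class difference itself was not used for linking.

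Class differences came from edgeR 4.0.16 in R 4.3.3 on the counts (quasi-likelihood F-test after filterByExpr and TMM, with Benjamini-Hochberg adjusted p under 0.05) in a fit of the 4 group means and the class. In simulated counts for putative male minus female at 19503 loci, the changed loci were drawn from those averaging over 2 CPM. Of these, 83 of 100 changed 2-fold and 56 of 100 changed 1.5-fold were recovered, and 9 others were called. The simulation held no differences between the groups, and recovery at weaker loci was not examined. Fold differences of loci at 0 in a class depend on the prior count and are no bound. Samples of different groups that share a replicate number were not paired in the labels. The named genes were up to 15 in each direction by adjusted p with at least 2 CPM in the higher class (filled to 5 by p), up to 4 per list, and DMRT1, CHD1, HINT1 and SPIN1. The members, gene lists and tests were chosen with earlier results of these data known. Library totals bound the precision: a count of 0 allows up to 3 counts, for counting error only. Alternatives were RLE scaling, no filter, DESeq2, a replicate block, each library left out, each day alone, the class as the only term, and other thresholds and links. Per the labels, each group has 4 replicates.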

Additional observations from a re-analysis of the deposited data

Results flagged for a closer look

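In a group of 4 embryos, a value was set apart where its gap to the nearest other exceeded 0.829 of the range of the group, which chance does in about 5% of groups. Among 72 groups examined, over 18 measures, 21 held such a value, and in 19 it belonged to the putative male. Most of these measures are genes chosen because the classes differ there, so this share is no support for the classes. The share of counts on Z was set apart at 2.75% in vehicle day 7 and at 2.85% in nicotine day 7. ALDH7A1 was set apart in all 4 groups, at 244, 247, 249 and 251 CPM, as was RNF20, at 287, 291, 250.1 and 255 CPM. MED18 was set apart at 37.9 CPM in nicotine day 5 and 36.4 CPM in nicotine day 7, and HNRNPK at 565 CPM in vehicle day 7 and 650.0 CPM in nicotine day 7. Among autosomal genes, the putative male was set apart for CDK19 at 67.4 CPM in nicotine day 7, where the others ran from 24.4 to 27.1 CPM. For TFAP2C it was set apart at 8.75 CPM in vehicle day 7, for FBXO9 at 81.7 CPM in vehicle day 5 and for SMC6 at 51.7 CPM in vehicle day 7, the last 2 as the lowest. NTRK2 stood at 17.3 CPM in the putative male of vehicle day 5, against 2.97 to 4.17 CPM in the females. The 2 values of putative females were those of DMRT1, at 1.34 CPM in vehicle day 5 replicate 4 and at 1.63 CPM in vehicle day 7 replicate 4.

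The class difference itself differed between nicotine and vehicle at 2 unnamed loci by the test of that difference in edgeR, with 2 putative males on each side. At MSTRG.14485 the log2 difference was lower by 1.68 in nicotine, at -1.68 (adjusted p = 2.75e-04). At MSTRG.14178, with 0 counts in both putative males given nicotine, the fitted value was -7.77 (adjusted p = 0.00376), which depends on the prior count.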

How the results depend on the processing

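Of 71 genes and loci followed through each alternative, 45 were called, and these kept their sign in the fits run. The sign turned for 5 that were not called: DMRT1 without vehicle day 7 replicate 2 or 4 and at day 7 alone (0.064), CDC37L1 without replicate 2 of vehicle or nicotine day 5 and at day 7 alone (0.11), SMARCA2 at day 7 alone (-0.013), JAK2 with the replicate block (0.064) and at day 5 alone (0.0076), and NEFM without vehicle day 5 replicate 2. With a library left out DMRT1 ran from -0.347 to 0.0711, CDC37L1 from -0.0639 to 0.0644 and NEFM from -0.0540 to 0.305. The Z median stayed between 0.52 and 0.59 with each library left out. Loci outside the pattern called higher numbered 256 to 330 and lower 87 to 106 with a library left out, and Z loci called higher 167 to 217. Counts of calls moved with the number of libraries and the tool. With day 5 alone (8 libraries) 69 loci were higher and 58 lower, 45 Z loci were higher and 1 autosomal locus was called. With the class as the only term 196 loci were higher, 126 Z loci were higher and 8 autosomal loci were called. The calls for the Z genes FBN2, IL6ST, RPS6, SMC5 and MRPS27 were lost both at day 5 alone and with the class as the only term. Those for CDK7, NDUFS4, OSMR, ANKRA2 and SLC1A1 were lost at day 5 alone, and that for TXNL1 with the class as the only term. Residuals of same-numbered libraries correlated between -0.36 and 0.24. They were taken after the fit of group and class, which makes those of the putative males cancel out. The lowest values, -0.36, -0.32 and -0.27, were pairs of putative males. The check therefore cannot settle whether replicate numbers pair the libraries. Fitted with a replicate block, 221 loci were higher and 74 lower, 133 Z loci were higher and 9 autosomal loci were called. Nicotine at day 5 without the class term then had 1 call. The named calls not made in that fit were FBXO9, CES1, CNIH3, SMC6, TFAP2C, ISL1, ENC1, ELAVL2, OSMR and BTF3. This block overlaps with the class, because the putative males of vehicle day 5, vehicle day 7 and nicotine day 7 are all replicate 2. Losses in that fit therefore cannot be told apart from this overlap. DESeq2 called 24 autosomal loci, 24 loci for the difference between days, 34 for that between treatments, 320 and 283 for nicotine at day 5 with and without the class term, and 61 and 35 at day 7. With a library left out, autosomal calls numbered 2 (without the putative male of nicotine day 5 or of vehicle day 7) to 10 (without nicotine day 5 replicate 3). Calls for the difference between days ran from 0 to 11 and between treatments from 2 to 15, the most without the putative male of vehicle day 7 and of nicotine day 5. For nicotine with the class term they ran from 1 to 3 at day 5 and from 0 to 1 at day 7, and without it from 0 to 2 and from 0 to 1. The cause was not tested. Chosen after seeing the data, the 64 Z loci whose identifier is in the matrix itself had a median of 0.74, and a looser or stricter link changed neither the 212 calls nor the median.

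Presence at 1 CPM or more left 48 pattern loci and absence at 0 counts 53, with the same 4 libraries. Without the pattern loci the totals gave p = 0.328 (exact permutation). Each day holds 2 putative males, which limits the comparisons between days and treatments. The standard errors of DMRT1 (0.34), CHRNB3 (0.35) and CHRNA6 (0.63), all weakly read, are wide beside the Z median of 0.57.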

Other observations

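At day 5 the Z share of counts in putative females was lower in the 3 given nicotine than in the 3 given vehicle. It was 2.298%, 2.26% and 2.02% in vehicle and 2.00%, 1.98% and 1.75% in nicotine, with no overlap, while at day 7 it was 1.99%, 1.94% and 1.92% in vehicle and 1.94%, 1.93% and 1.95% in nicotine. The nearest values of the treatments at day 5 were 2.017% in vehicle and 2.003% in nicotine. That gap is narrower than the spread within either treatment, and it was not tested. The putative males of day 5 were at 2.93% and 2.92%.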
